A study of Mus musculus with 5 samples.

Results

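Eph-ephrin, Slit-Robo, and netrin guidance genes were examined in retrogradely labeled projection neurons of the mouse primary somatosensory cortex (S1). They comprised 41 genes chosen by their symbols, with each gene represented by its probe set of highest mean signal, and 39 of them were measured among 19938 genes. *Ephb2* had no probe set paired with its symbol in the annotation used, and the probe set of *Ntng2* was shared with another symbol, so neither was read. Every group consisted of ICR mice at postnatal day 24 electroporated in utero with a tdTomato plasmid. Green RetroBeads, a retrograde tracer, were then injected either into the primary motor cortex (M1) for long association neurons (association neurons below) or into the contralateral S1 for callosal neurons. About 1000 labeled cells per group were cut out by laser microdissection, and their amplified cDNA was hybridized to 1 GeneChip Mouse Gene 1.0 ST array per group. The groups were association neurons of layers 2/3 (L2/3), 5 (L5), and 6b (L6b, the remnant of the subplate) and callosal neurons of L2/3 and L5. The sources used here do not give the number of animals per array.

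These genes encode the main families of contact and diffusible cues that steer growing axons. Eph receptors are tyrosine kinases that bind membrane-anchored ephrins on neighboring cells, secreted Slit proteins repel axons that carry Robo receptors, and netrins attract through Dcc or repel through Unc5 receptors. Repulsive guidance molecules (RGMs) bind neogenin, and netrin-G proteins are held on the axon surface and bind partners of the NGL family at synapses. In the mature cortex several of them are known from synapses and dendritic spines.

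A level here is the log2 signal of a gene minus the median of its array, so that 0 is the median of all probe sets, and a difference of 1 is 2-fold. Levels are set against each other only within a gene, since probe sets of different genes do not share a scale. Each group has 1 array, so no replicate error is known and no test was possible, and a count of genes past 2-fold is a rule of size that is read beside the share of all 19938 genes past the same size. The array medians ranged from 5.71 to 5.80 before subtraction. Identical deposited values occurred in 2 or more arrays for 31 of the 39 guidance genes and in 3 or more for 23. Such ties turn into differences of up to 0.09 once the medians are subtracted, so differences of that size were not read.

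The labels were checked against marker genes. Of 5 measured markers of excitatory neurons, the vesicular glutamate transporter gene *Slc17a7* lay between 3.84 and 4.47 and *Neurod2* between 1.01 and 1.53, but the others were uneven. *Camk2a* had 2.41 in L6b against 4.41 to 5.75, in the same order of arrays as *Epha4* below, *Nrgn* had 1.82 in L6b against 3.60 to 3.86, and *Neurod6* had 1.29 in association L2/3 against 2.58 to 3.42. The list averaged 2.51 in L6b and 3.20 to 3.50 elsewhere.

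All 7 L6b/subplate markers were highest in association L6b, with a mean level of 2.60 against 0.18 to 0.38 in the other arrays. The 6 L2/3 markers averaged 2.35 and 2.12 in association and callosal L2/3 and 0.52 to 1.08 elsewhere. The 6 L5 markers followed the labels less well. They averaged 2.40 and 2.19 in association and callosal L5, 1.73 and 1.12 in association and callosal L2/3, and 1.55 in L6b, but 3 of the 6 were highest in L6b. *Etv1* was highest in association L2/3 at 2.75, and *Rbp4* had 1.12 in callosal L5, below 2.23 and 2.20 in the L2/3 arrays. The 6 GABAergic neuron markers averaged 2.82 in association L2/3, the highest, 0.74 in L6b, the lowest, and 2.09 to 2.56 elsewhere, and 4 of the 6 were lowest in L6b. The 6 measured myelin markers averaged 2.55 in L6b, 2.13 in association L5, and less in the other arrays, down to 0.47 in association L2/3. Of these, 3 were highest in L6b, among them *Mog* at 4.12 against 0.46 to 1.28, whereas *Mag* and *Mobp* were highest in association L5 at 3.96 and 3.83 and *Cnp* in callosal L5 at 2.47.

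Among the guidance genes, 3 receptors had the widest ranges over the 5 arrays. Between their lowest and highest array 4 of 39 genes (10.3%) differed by at least 2-fold, where 19.2% of all genes did, and 3 (7.69%) differed by at least 4-fold, where 6.22% did. These 3 were *Epha4*, *Unc5d*, and *Epha6*, and *Ephb6* was the other. All 3 were highest in association L2/3 and lowest in association L6b, a pattern that 14.7% of the 1240 genes with a 4-fold range had. The median range was 0.32 log2 in guidance genes and 0.36 in all genes, and 25 guidance genes (64.1%) had a range under 0.5 log2, as 62.2% of all genes had. None of the secreted netrins, netrin-G, RGM, Slit, Robo, or ephrin genes reached 2-fold. Without the L6b array, *Unc5d* had a range of 2.40, *Epha6* of 1.73, *Epha4* of 1.26, and *Ephb6* of 0.93.

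**Figure D1:**
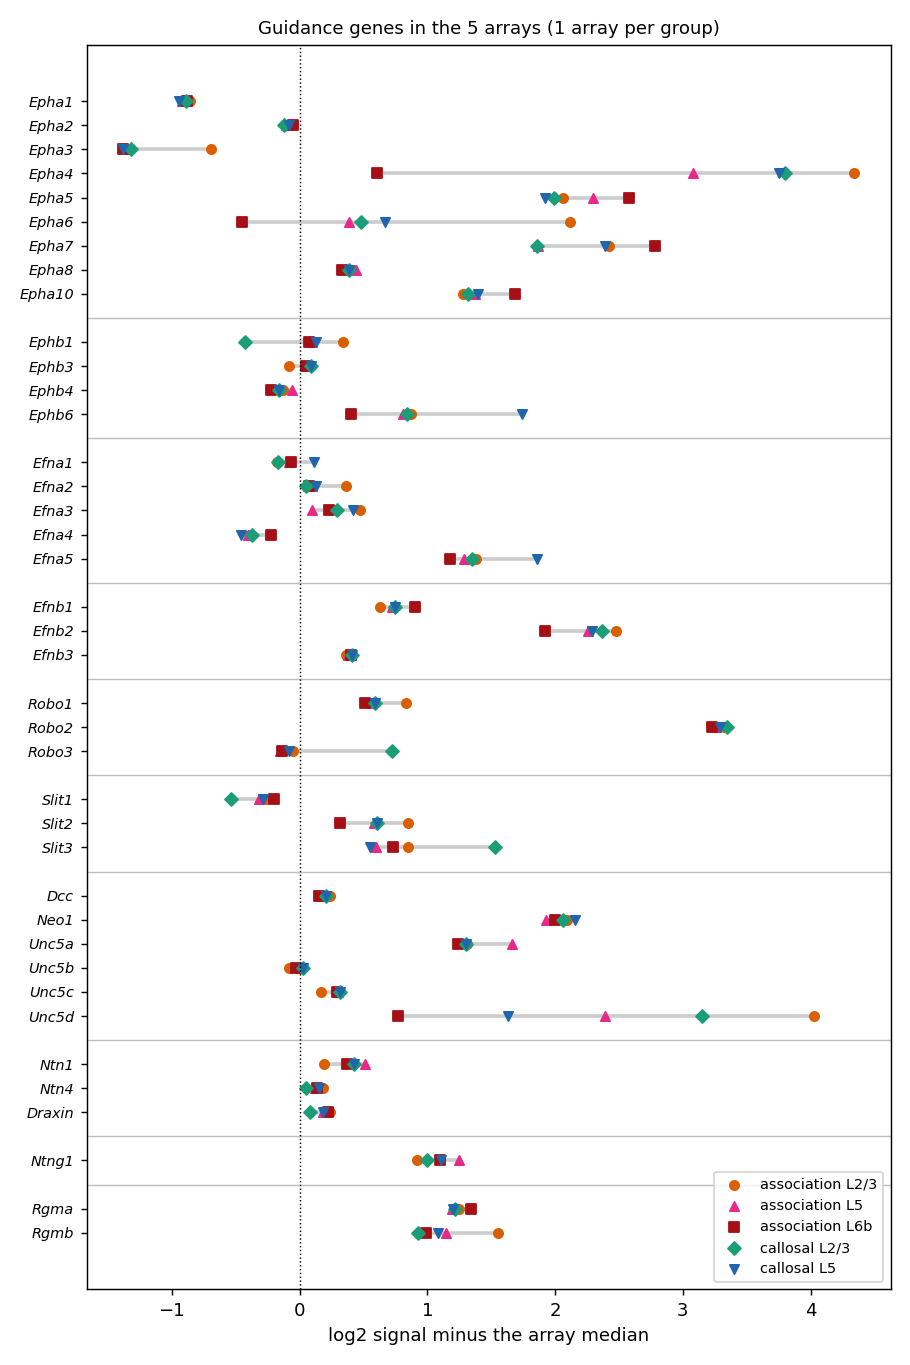
Log2 signal minus the array median (horizontal axis) of the 39 measured guidance genes (vertical axis, grouped by family from EphA receptors at the top to RGM ligands at the bottom), 1 point per array and a gray bar from the lowest to the highest. The bars of *Epha4* (3.73 log2), *Unc5d* (3.26), and *Epha6* (2.57) are the longest, and that of *Ephb6* (1.34) follows.

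*Epha4* encodes an Eph receptor that binds ephrins of both classes and is known from corticospinal axon guidance and from dendritic spines. Its level was 4.34 in L2/3 association neurons, 3.80 in L2/3 callosal neurons, 3.75 in L5 callosal neurons, 3.08 in L5 association neurons, and 0.61 in L6b association neurons. The L6b array was the low one, 2.47 below its nearest neighbor, and the remaining 4 arrays lay within 1.26 of each other. The L6b level was 5.54-fold below association L5 and 13.3-fold below association L2/3. In the latter comparison 53 of all 19938 genes, *Epha4* included, were at least as far apart. The 2 callosal layers differed by 0.05.

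*Epha6* encodes a receptor of ephrin-A ligands. Its level was 2.12 in L2/3 association neurons, 0.67 in L5 callosal neurons, 0.48 in L2/3 callosal neurons, 0.39 in L5 association neurons, and -0.45 in L6b association neurons. Here association L2/3 was the high array, 1.45 above the next, and L6b, the only array below its median, was 0.84 below the next. Association L2/3 was 3.12-fold above callosal L2/3, 3.32-fold above association L5, and 5.94-fold above association L6b. The last of these folds rests on a signal below the array median in L6b. The GABAergic marker *Gad2* had the same high array, at 2.18 against 0.54 in callosal L2/3 and 0.45 in association L5, with differences of 1.64 between association and callosal L2/3 and -1.73 between association L5 and L2/3 that equal those of *Epha6*. The other GABAergic markers did not all follow *Gad2*. Association minus callosal L2/3 was 2.31 for *Pvalb*, 0.56 for *Slc32a1*, 0.16 for *Gad1*, -0.01 for *Sst*, and -0.29 for *Vip*. Association L5 minus L2/3 was 0.54 for *Gad1*, -0.16 for *Pvalb*, -0.45 for *Sst*, -0.59 for *Slc32a1*, and -1.87 for *Vip*. The part of GABAergic cells in the *Epha6* values was not tested.

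*Unc5d* encodes a receptor of netrins and FLRT proteins and is known from migrating neurons and upper layers of the developing cortex. Its level was 4.03 in L2/3 association neurons, 3.15 in L2/3 callosal neurons, 2.39 in L5 association neurons, 1.63 in L5 callosal neurons, and 0.77 in L6b association neurons. The values descended from L2/3 to L5 to L6b in association neurons and from L2/3 to L5 in callosal neurons, with association above callosal neurons in both layers. L5 was 3.12-fold below L2/3 in association neurons and 2.87-fold below it in callosal neurons. The association minus callosal difference was 0.88 in L2/3 and 0.76 in L5. A second probe set of *Unc5d*, dimmer, lay between 0.29 and 0.50 in the 5 arrays, a range of 0.21, and the mean of both put L5 below L2/3 by less than 2-fold (differences of -0.855 in association and -0.845 in callosal neurons). With that mean the L6b minus L5 difference was -0.825, also under 2-fold, and the range of *Unc5d* was 1.68, under 4-fold. The association minus callosal difference was then 0.46 in L2/3 and 0.45 in L5.

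**Figure D2:**
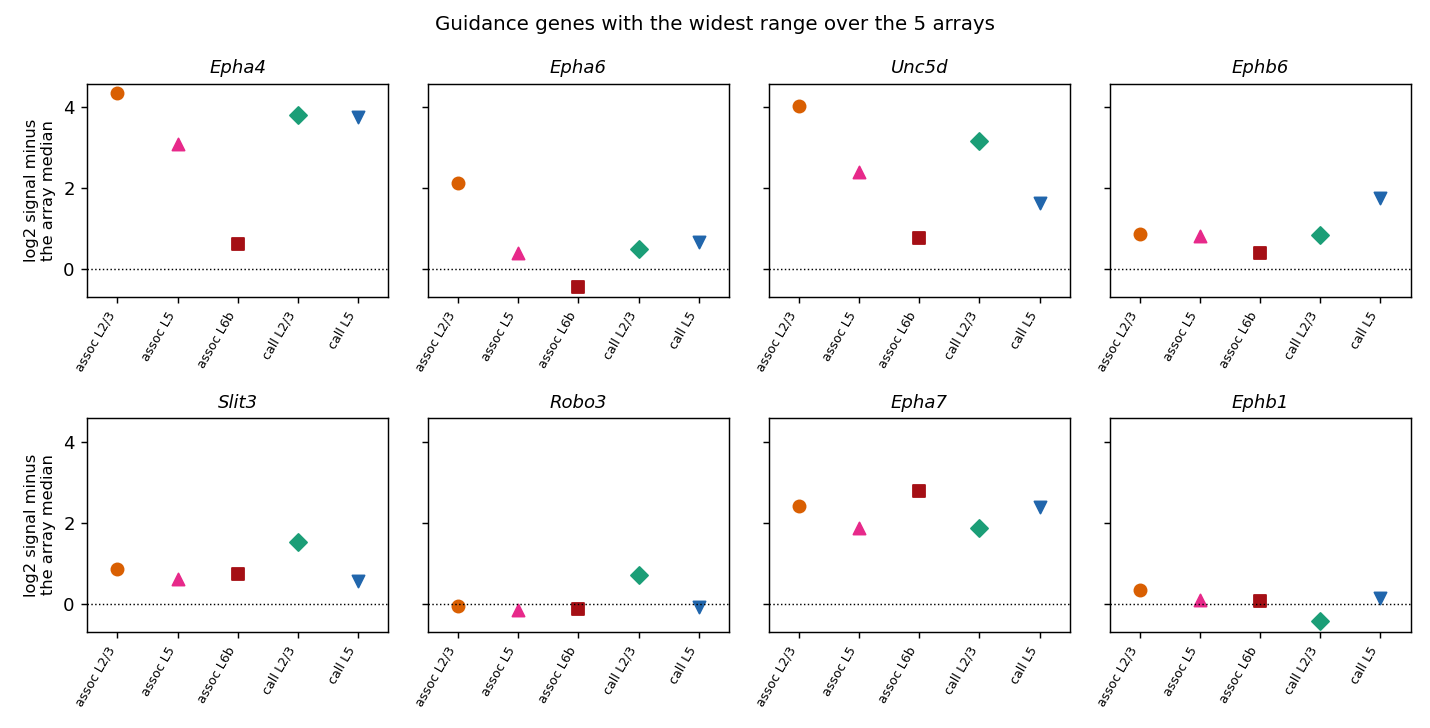
Log2 signal minus the array median (vertical axis) in the 5 arrays (horizontal axis, assoc for association and call for callosal neurons) of the 8 guidance genes with the widest range, 1 point per array. *Epha4*, *Epha6*, and *Unc5d* are lowest in L6b and highest in association L2/3, *Ephb6* is highest in callosal L5, and *Slit3* and *Robo3* are highest in callosal L2/3.

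The promoters of *Epha4* and *Epha6* are shown because these EphA receptor genes shared their highest and their lowest array. Each run is the 250 bases before a transcript start in the RefSeq promoter table of build GRCm38.p6, read 5′ to 3′ on the minus strand, which both genes occupy. The start used lies inside the annotated span of the gene in both cases, and for *Epha6* so does the whole window. Capitals mark each match to the E-box letters CANNTG, which cover both strands. The windows are chr1:77515089-77515338 for *Epha4* and chr16:60605532-60605781 for *Epha6*. The table held promoters of 35 of the 41 guidance genes.
Epha4: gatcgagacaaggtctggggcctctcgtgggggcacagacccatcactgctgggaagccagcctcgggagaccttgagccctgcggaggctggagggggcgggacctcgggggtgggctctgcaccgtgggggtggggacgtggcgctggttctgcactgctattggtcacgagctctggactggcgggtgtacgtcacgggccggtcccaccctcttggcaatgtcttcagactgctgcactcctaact
Epha6: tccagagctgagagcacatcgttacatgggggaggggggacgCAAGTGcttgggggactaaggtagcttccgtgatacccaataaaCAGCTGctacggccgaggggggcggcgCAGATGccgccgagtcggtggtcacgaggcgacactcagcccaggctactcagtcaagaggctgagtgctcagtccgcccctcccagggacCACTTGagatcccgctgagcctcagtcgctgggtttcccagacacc
The *Epha6* window held 4 E-box matches and the *Epha4* window 0, and 66.2% of the 32851 promoter windows of this length held at least 1. Both were rich in CG dinucleotides, with 14 in *Epha4* and 15 in *Epha6* against a median of 6. The matches describe letters in these windows and were not tied to the array signals.

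*Epha7*, *Ephb6*, *Ephb1*, *Slit3*, *Robo3*, and the other genes given below by single arrays stayed under 2-fold in each of the 6 comparisons and were singled out after their values were seen. Among the other EphA receptor genes, *Epha5*, *Epha7*, and *Epha10* were highest in L6b, where *Epha4* and *Epha6* were lowest. The L6b levels of *Epha1*, *Epha2*, *Epha3*, and *Epha8* lay within 0.09 of another array, so their order was not read. *Epha7*, whose ephrin-A receptor is known from cortical area and dendrite patterning, had 2.78 in L6b association neurons, 2.42 in L2/3 association neurons, 2.39 in L5 callosal neurons, 1.87 in L5 association neurons, and 1.86 in L2/3 callosal neurons. *Epha5*, a close relative with ephrin-A ligands, had 2.58 in L6b association neurons, 2.30 in L5 association neurons, 2.06 in L2/3 association neurons, 1.99 in L2/3 callosal neurons, and 1.92 in L5 callosal neurons. *Epha10*, whose receptor lacks kinase activity, had 1.69 in L6b and 1.28 to 1.40 elsewhere. Its second, dimmer probe set had 0.43 in L6b and 0.37 in association L2/3, a difference too small to be read. The excesses of *Epha7*, *Epha5*, and *Epha10* over the next array were 0.36, 0.28, and 0.29, all under 2-fold. No replicate shows whether they exceed the noise of an array. *Epha3* stayed below the median in every array, at -0.69 in association L2/3 and -1.38 to -1.32 elsewhere. *Epha1* (-0.94 to -0.86) and *Epha2* (-0.12 to -0.05) were also below it throughout, and *Epha8* lay between 0.33 and 0.44, with 4 identical deposited values.

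In the EphB receptor family 1 of 4 measured genes reached a 2-fold range. *Ephb6*, whose product lacks kinase activity, had 1.74 in L5 callosal neurons, 0.87 in L2/3 association neurons, 0.84 in L2/3 callosal neurons, 0.81 in L5 association neurons, and 0.40 in L6b association neurons. Callosal L5 was the high array, by 0.87, and its range of 1.34 fell to 0.47 without that array. *Ephb1*, which is known from the guidance of retinal and callosal axons, was low in callosal L2/3 at -0.43 and lay between 0.07 and 0.34 in the others, but a second, dimmer probe set ranged only from -0.09 to 0.00. *Ephb3* (-0.08 to 0.09) and *Ephb4* (-0.22 to -0.06), the latter a receptor of venous endothelium, stayed near the median.

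The ephrin ligands, the partners of these receptors, stayed under 2-fold. *Efna5*, a ligand known from thalamocortical and retinal topography, was highest in callosal L5 at 1.86 and lay between 1.18 and 1.38 in the other arrays. *Efna3* ranged from 0.10 to 0.47, *Efna2* from 0.05 to 0.36, *Efna1* from -0.18 to 0.11, and *Efna4*, below the median in all 5 arrays, from -0.46 to -0.22. Of the ephrin-B genes, *Efnb2* was lowest in L6b at 1.92 and lay between 2.26 and 2.48 in the others. *Efnb1* was highest in L6b at 0.90, against 0.63 to 0.75, and *Efnb3* spanned 0.36 to 0.41. *Efnb2* and *Ephb4* are also genes of blood vessels, and the mean level of 6 endothelial markers was -0.06 to 0.02 in the 5 arrays. The single markers were uneven. *Cldn5* lay at 1.10 to 2.04, highest in L6b, *Pecam1* and *Cdh5* at -0.02 to 0.30, and *Flt1*, *Kdr*, and *Tek* below the median throughout. The part of vessel cells in these values was not tested.

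The Slit and Robo genes gave 2 members with a peak in callosal L2/3. *Slit3*, a secreted ligand, had 1.53 in L2/3 callosal neurons, 0.85 in L2/3 association neurons, 0.73 in L6b association neurons, 0.60 in L5 association neurons, and 0.55 in L5 callosal neurons. *Robo3*, the receptor needed for hindbrain and spinal axons to cross the midline, had 0.72 in callosal L2/3 and -0.15 to -0.05 in the other 4 arrays. The range of *Slit3*, 0.98, was the widest below 2-fold, and that of *Robo3* was 0.87. *Robo2*, a Slit receptor, was well above the median and even, from 3.23 to 3.35, with the same deposited value in 4 arrays. *Robo1* lay between 0.51 and 0.83, *Slit2* between 0.32 in L6b and 0.85 in association L2/3, and *Slit1* between -0.54 and -0.20.

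Beside *Unc5d*, the receptors of netrins and RGMs varied little. *Dcc*, the attractive netrin receptor, had 1 deposited value in all 5 arrays and lay at 0.15 to 0.24. *Neo1*, the neogenin gene, spanned 1.93 to 2.16. *Unc5a* was highest in association L5 at 1.66 and lay between 1.24 and 1.31 elsewhere, *Unc5c* spanned 0.17 to 0.32, and *Unc5b* -0.08 to 0.03. Of the ligands, *Ntn1* ranged from 0.19 to 0.51, *Ntn4* from 0.05 to 0.18, and *Draxin*, which encodes a repellent that binds Dcc, from 0.08 to 0.24. *Ntng1*, of netrin-G1, ranged from 0.92 to 1.25 and its second probe set from -0.29 to -0.14. *Rgmb* was highest in association L2/3 at 1.55, against 0.93 to 1.15, and *Rgma* spanned 1.19 to 1.34.

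Set between projections, the guidance genes differed at least 2-fold in 1 case. In L2/3, 1 of 39 was higher in association than in callosal neurons (*Epha6*), where 3.29% of all genes were, and 0 were lower, where 2.29% were. In L5, 0 were higher, where 2.29% of all genes were, and 0 lower, where 3.22% were. The closest to 2-fold were *Unc5d* (0.88), *Ephb1* (0.77), and *Robo3* (-0.77) in L2/3 and *Ephb6* (-0.93), *Unc5d* (0.76), and *Epha4* (-0.67) in L5. With the mean of all probe sets of a gene, *Unc5d* had 0.46 in L2/3 and 0.45 in L5, and *Ephb1* had 0.34 in L2/3. The median difference of the guidance genes was 0.03 in L2/3 and -0.03 in L5, as it was for all genes. Tied deposited values give differences of this size once the array medians are subtracted, so the match was not read. A mouse was injected in either M1 or the contralateral S1, so projection and animal cannot be told apart. The X-inactivation gene *Xist* lay at 1.47 to 2.55 in the association arrays and -1.48 to -0.88 in the callosal arrays, and the Y-linked *Eif2s3y* at -2.61 to -2.46 and 2.45 to 2.90. The part of this in the differences of guidance genes was not tested.

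Set between L5 and L2/3, guidance genes past 2-fold were lower in L5. In association neurons 3 of 39 were at least 2-fold lower in L5 (*Epha6*, *Unc5d*, and *Epha4*), where 4.73% of all genes were, and 0 were higher, where 2.31% were. In callosal neurons 1 was lower (*Unc5d*), where 2.92% of all genes were, and 0 were higher, where 2.64% were. The callosal value of *Slit3*, -0.98, lay just outside the rule, and those of *Robo3* and *Ephb6* were -0.80 and 0.90. *Epha4* and *Epha6*, lower in L5 by 1.26 and 1.73 in association neurons, stood at -0.05 and 0.19 in callosal neurons. The medians of the guidance genes were -0.06 and 0.00, beside -0.05 and 0.00 for all genes, again of the size that ties give and not read.

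Set against L6b, guidance genes past 2-fold were lower in L6b. Against association L5, 2 of 39 were lower in L6b (*Epha4* and, by its brighter probe set alone, *Unc5d*), where 4.59% of all genes were, and 0 were higher, where 2.27% were. Against association L2/3, 3 were lower (*Epha4*, *Unc5d*, and *Epha6*), where 6.77% of all genes were, and 0 were higher, where 1.86% were. The largest rise in L6b was that of *Epha7*, 0.91 over association L5, which reached 1.04 under quantile normalization. The medians were -0.03 and -0.09, beside -0.03 and -0.06 for all genes, likewise of the size that ties give and not read. The second changed sign, to 0.07 beside 0.10, when the 75th percentile of each array replaced its median. Each count was at most 3 of 39 and near the share of all genes, so it singles out genes and not a family. In captured tissue, fewer cells of a type and less RNA per cell cannot be told apart, and the part of the excitatory, GABAergic, and myelin markers given above in these values was not tested.

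**Figure D3:**
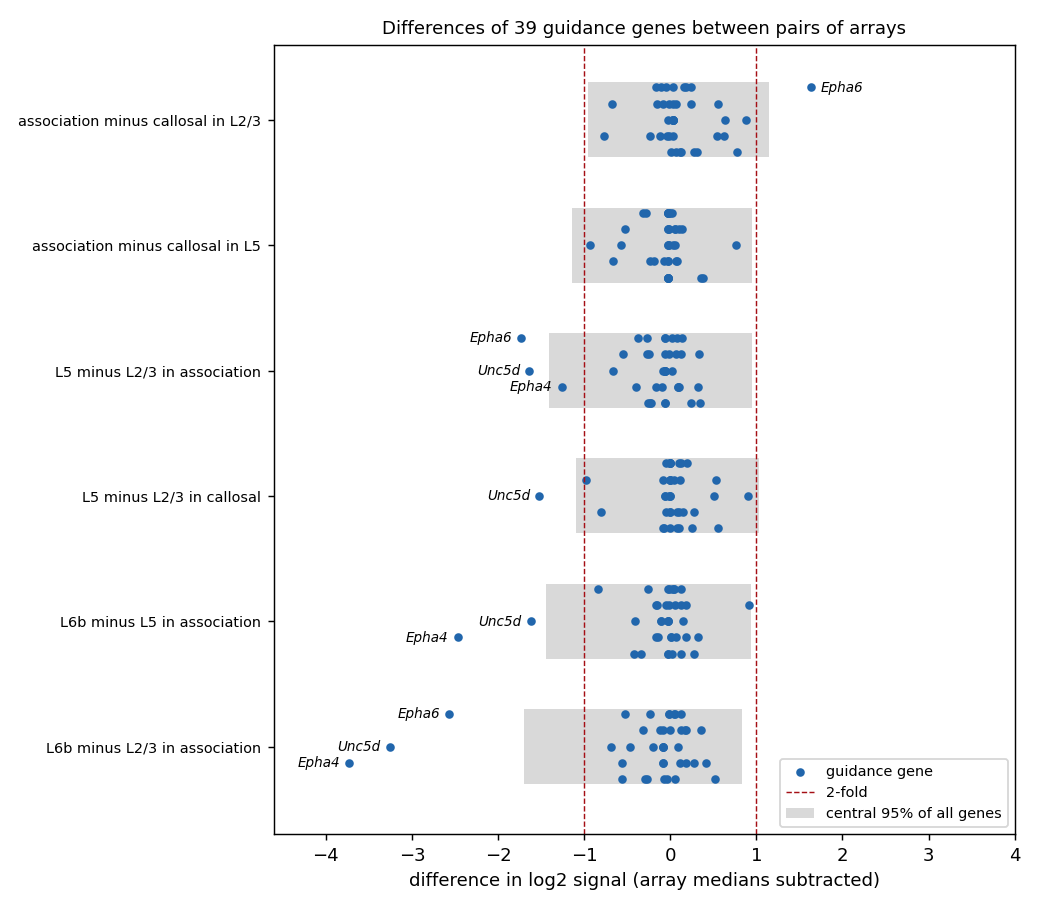
Difference in log2 signal (horizontal axis) of the 39 guidance genes in 6 comparisons between pairs of arrays (vertical axis), 1 point per gene, spread vertically for legibility. Gray bars hold the central 95% of all genes and dashed lines mark 2-fold, and the named genes *Epha4*, *Unc5d*, and *Epha6* are the ones past it.

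By the stricter rule that an array stands at least 2-fold apart from each of the other 4, 2 guidance genes qualified. *Epha6* was higher in association L2/3, where 1.53% of all genes were, and *Epha4* was lower in association L6b, where 1.79% were. In every other case the count was 0 of 39. For higher genes the share of all genes in those cases was 0.878% in L5 association neurons, 0.818% in L6b association neurons, 1.09% in L2/3 callosal neurons, and 0.853% in L5 callosal neurons. For lower genes it was 0.105% in L2/3 association neurons, 0.522% in L5 association neurons, 0.286% in L2/3 callosal neurons, and 0.231% in L5 callosal neurons.

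Genes that act downstream or beside the receptors were read from 3 lists of 52 genes, of which 50 were measured, and 13 of these were at least 2-fold apart in 1 or more of the 6 comparisons, beside 17.4% of all genes. They were 6 of 18 Eph-ephrin effectors, 5 of 17 Slit-Robo effectors and partners, and 2 of 15 netrin and RGM effectors and partners. Between projections in L2/3, 2 of 50 were higher in association neurons (3.29% of all genes) and 0 lower (2.29%), and in L5, 0 were higher (2.29%) and 6 lower (3.22%). Between L5 and L2/3, 0 were higher in L5 (2.31%) and 8 lower (4.73%) in association neurons, and 2 were higher (2.64%) and 1 lower (2.92%) in callosal neurons. In L6b, 1 was higher (2.27%) and 4 lower (4.59%) than in association L5, and 0 were higher (1.86%) and 8 lower (6.77%) than in association L2/3. The genes named next are the 3 lowest and the 3 highest of each list by L6b level against the mean of the other arrays. A low or high L6b value in them was thus fixed by the choice. Among all genes, 37.0% of those with a 2-fold range and 40.2% of those with a 4-fold range were lowest in L6b. *Lrrc4c*, which encodes the netrin-G1 partner NGL-1, had 5.65 in L2/3 association neurons, 4.95 in L2/3 callosal neurons, 4.69 in L5 callosal neurons, 4.22 in L5 association neurons, and 2.89 in L6b association neurons. Its order of arrays was that of *Epha4*, while *Ntng1* itself spanned 0.33. *Lrrc4*, which encodes the related NGL-2, had 1.53 in L2/3 association neurons and 0.57 in L6b.

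*Rasa1*, a Ras GTPase-activating protein gene that acts in EphB signaling, had 3.27 in L5 callosal neurons, 2.77 in L2/3 callosal neurons, 2.61 in L2/3 association neurons, 2.55 in L5 association neurons, and 0.20 in L6b association neurons. L6b was the low array, 5.10-fold below association L5. *Sipa1l1*, whose product is a spine protein that EphA4 signaling regulates, had 3.40 and 2.54 in association and callosal L2/3, 1.08 and 1.53 in association and callosal L5, and 0.61 in L6b, so that both L2/3 arrays lay above the remaining 3. *Usp33* and *Trim9*, ubiquitin pathway genes tied to Robo1 and to Dcc, were lowest in L6b at 3.32 and 2.76, against 3.73 to 4.87 and 3.78 to 4.19.

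*Srgap3*, a Slit-Robo GTPase-activating protein gene, had 4.94 in L5 callosal neurons, 4.13 in L2/3 association neurons, 3.11 in L5 association neurons, 2.08 in L2/3 callosal neurons, and 1.60 in L6b association neurons. *Adam10*, whose protease sheds ephrins, had 2.35 in L5 callosal neurons, 2.29 in L2/3 association neurons, 0.99 in L5 association neurons, 0.94 in L2/3 callosal neurons, and 0.84 in L6b association neurons. Both genes were thus high in association L2/3 and callosal L5 and lower in the remaining 3 arrays. The *Srgap3* values are those of the brighter of its 2 probe sets, and the other is not given. *Flrt3*, whose product binds Robo1 and Unc5 receptors, had 1.37 in L6b, 1.29 in association L5, and 0.54 to 0.91 elsewhere. *Flrt2*, a ligand of Unc5d, was highest in association L2/3 at 2.99, against 2.42 to 2.67. *Grip1*, a scaffold of ephrin-B and Eph proteins, had 0.64 in L6b and 0.10 to 0.22 in the others. *Dock1*, *Vav2*, *Ngef*, *Gpc1*, *Dag1*, *Maged1*, and *Ablim3* exceeded the mean of the other arrays in L6b by 0.03 to 0.39. Among these, *Dock1*, *Vav2*, and *Gpc1* were highest in L6b and *Ngef* in association L2/3. *Dag1* and *Maged1* had 1.40 and 4.04 in L6b and 1.41 and 4.09 in association L2/3, too close to be ordered. The 0.03 of *Ablim3* was also too small to be read.

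**Figure D4:**
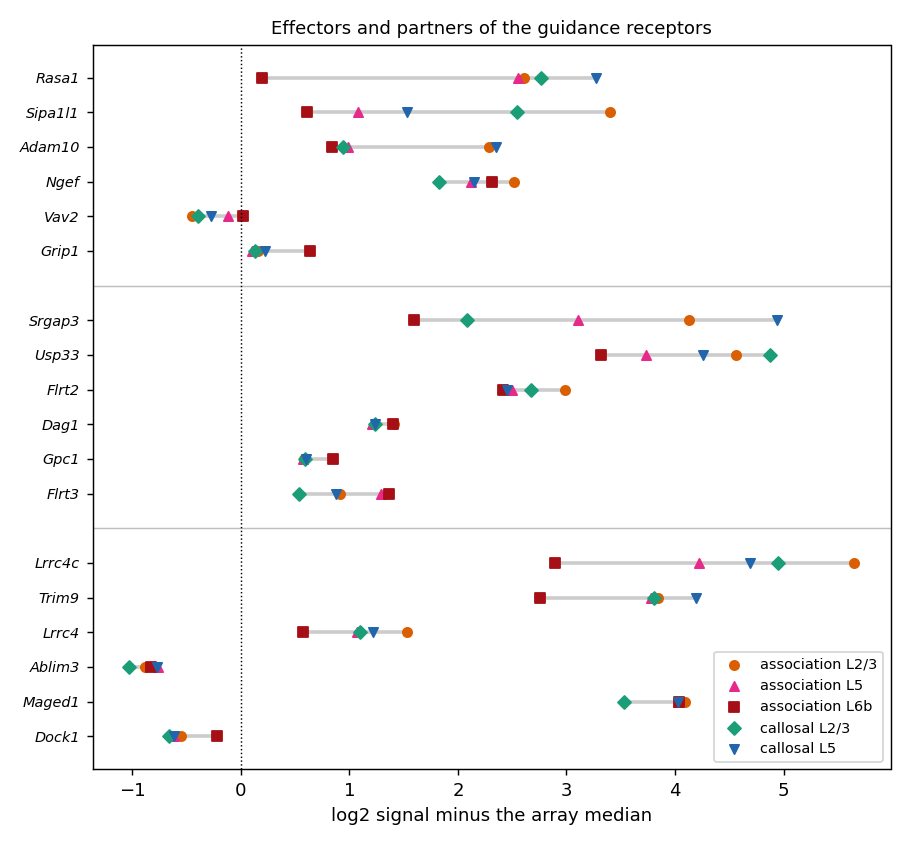
Log2 signal minus the array median (horizontal axis) of 18 effector and partner genes (vertical axis), the 3 lowest and the 3 highest in L6b of each of 3 lists (Eph-ephrin at the top, Slit-Robo in the middle, netrin and RGM at the bottom), 1 point per array. *Rasa1*, *Sipa1l1*, *Srgap3*, and *Lrrc4c* are lowest in L6b, at 0.20, 0.61, 1.60, and 2.89.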

How the data were processed

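Labeled neurons of each group were collected by laser microdissection, and their RNA was amplified and hybridized to 1 array per group. The authors deposited log2 signals per probe set, given to 2 decimals, with values from 1.11 to 14.2. The submitters' processing notes name Affymetrix Expression Console, with no version or summary method, and the study's methods name a log transformation, a global normalization, and a centering of the signals. The array medians of the deposited values differed slightly, and whether those steps had been applied to them is not stated. With 1 array per group, precision is limited by the number of arrays and no p-value was computed.

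Of 35556 probe sets, 21789 were paired with 1 gene symbol by the platform annotation, 1621 with several, and 12146 with none, and probe sets with 1 symbol gave 19938 genes. Each gene was read from its probe set of highest mean, of which the median of the array was subtracted. No filter on dim signals was used. Genes were counted where 2 arrays differed by at least 2-fold, and the counting was tested on simulated data. Values in all 5 arrays are given for each guidance gene at least 2-fold apart in 1 or more of the 6 comparisons, and other guidance genes are given mainly by their range. From each of the 3 effector lists, the 3 genes with the highest and the 3 with the lowest L6b value against the mean of the other arrays are named, and markers only where a result turns on them. The members and lists were chosen with earlier results of these data known.

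Marker list means over the 5 arrays that are not given in the report ranged from 0.96 to 1.38 for astrocytes, 0.19 to 0.55 for oligodendrocyte precursors, 0.42 to 0.64 for microglia, and 0.28 to 0.43 for mural cells and fibroblasts. The 6 alternatives were values as deposited, the 75th percentile in place of the median, quantile normalization, 2 filters on dim genes, and the mean of all probe sets of a gene. Ranges without each array in turn were added after the data were seen. Python 3.11.15, pandas 2.3.3, numpy 2.4.6, and matplotlib 3.10.9 were used.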

Additional observations from a re-analysis of the deposited data

Results flagged for a closer look

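In 2 effector genes the difference between projections ran opposite ways in the 2 layers, and the difference between layers ran opposite ways in the 2 projections. With 1 array per group, neither difference was tested. For *Adam10*, association minus callosal was 1.35 in L2/3 and -1.36 in L5, and L5 minus L2/3 was -1.30 in association and 1.41 in callosal neurons. For *Srgap3*, the same values were 2.05 and -1.83, and -1.02 and 2.86. They rest on the brighter of its 2 probe sets, and the other is not given, so the reversal is shown by 1 probe set alone. Of all 19938 genes, 106 (0.532%) were at least 2-fold apart in opposite directions between the layers, and 113 (0.567%) between the projections.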

How the results depend on the processing

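Of 190 alternative values of the counts and medians, 185 stayed within the tolerance set for them (a factor of 1.5 for counts and 0.1 log2 for medians). Part of this was built in. Many counts were 0 in the main setting, the filters leave the values of kept genes unchanged, and the medians were of the size that ties give. Under quantile normalization, the L6b signal of 1 guidance gene (*Epha7*, 1.04 against 0.91) exceeded that of association L5 by at least 2-fold. With the mean of all probe sets of a gene, 0 genes were at least 2-fold lower in callosal L5 than in callosal L2/3, and 1 was lower in L6b than in association L5. Both changes came from *Unc5d*, which with that mean also left the genes lower in association L5 than in L2/3 (2 remained of 3) and those with a 4-fold range (2 of 3). Its differences were then -0.855 and -0.845 for L5 minus L2/3 in association and callosal neurons, -0.825 for L6b minus L5, and -1.68 for L6b minus L2/3. With the 75th percentile subtracted, the median of the guidance genes in L6b minus association L2/3 was 0.07, while that of all genes moved from -0.06 to 0.10. Without association L6b, *Unc5d* kept a 4-fold range (2.40), and *Epha6* (1.73) and *Epha4* (1.26) did not. *Ephb6* fell out of the 2-fold range without callosal L5 (0.47) or without L6b (0.93), and the range of *Epha6* was 1.12 without association L2/3. The filters left 33 and 31 of the 39 guidance genes. Single arrays limit every value, and none of these settings measures replicate error.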
